A study of Saccharomyces cerevisiae with 4 samples.

Results

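The 10 genes described here encode the enzymes with which budding yeast removes superoxide and peroxides, and the thioredoxin and glutathione reductases that recharge them. They are CTT1, CTA1, SOD2, TSA1, TSA2, AHP1, TRX1, TRX2, TRR1 and GLR1, and were chosen by symbol in the platform annotation. Each was measured by 1 probe set, so they make up 10 of the 5449 S. cerevisiae genes on the Affymetrix Yeast Genome 2.0 array. All 10 probe sets carry the plain suffix _at, which the platform gives to probe sets not designed to match several transcripts. TRX1 with TRX2 and TSA1 with TSA2 are nonetheless pairs of similar genes, and cross-hybridisation between them was not tested.

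The study compared 2 arrays of total RNA from wpl1∆::KAN cells (strain Y3501, MATa) with 2 arrays from wild type cells (strain K699, MATa). Wpl1, the yeast form of Wapl, binds cohesin and helps to free it from chromosomes. Both strains were harvested in exponential growth at an OD600 of 0.3 in YP medium containing 2% glucose, and the labels name no oxidant. The labels name 1 strain per genotype and do not say whether the replicates were separate cultures, so p-values cover the spread between these arrays, which may be technical. The descriptions give the 2 arrays of each replicate number a shared date tag. Values are therefore given by genotype and by replicate number. In the comparison by replicate number, the 2 arrays of a number are 1 deletion and 1 wild type array with 1 date tag. Its p-values thus treat arrays of 1 tag as repeats, and the spread within a number includes the genotype difference.

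Superoxide dismutases turn superoxide into hydrogen peroxide, which catalases split into water and oxygen. Peroxiredoxins reduce peroxides with a reactive cysteine, thioredoxin reduces the oxidised peroxiredoxin, and thioredoxin reductase recharges thioredoxin with electrons from NADPH. In yeast the transcription factors Yap1 and Skn7 switch on much of this set under peroxide, and Msn2 and Msn4 switch on CTT1 and other genes as part of the general stress response, which is low in fast growth on glucose.

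The deposited values are log2 signals, and the 95th percentile of the 1746 fission yeast probe sets on each array, 5.79 to 6.10, served as the limit of background. Between 93.1% and 95.9% of genes lay above it. RAD61, the standard name of WPL1, was at 3.96 and 4.44 in the deletion arrays, below the limit, against 6.43 and 6.55 in the wild type arrays. The mating type a genes STE2, MFA1, MFA2 and BAR1 ran from 9.74 to 11.8 in all 4 arrays, while the alpha gene STE3 was above background in 0 of 4. The pheromone genes MF(ALPHA)1 and MF(ALPHA)2 were above it in 3 and 4 arrays. Arrays of the same replicate number correlated with r = 0.982 (replicate 2) and 0.992 (replicate 1) across genes, and arrays of the same genotype with r = 0.953 (deletion) and 0.944 (wild type). Genes of chromosome IX stood apart in deletion replicate 2, with a median log2 difference between deletion and wild type of 0.66 in replicate 2 and 0.04 in replicate 1. None of the 10 defence genes lies on chromosome IX. Levels of different genes come from different probes and are not compared.

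Of the 10 defence genes, 5 passed the test by replicate number and 0 by genotype. The superoxide dismutase SOD2, the catalase CTT1 and the peroxiredoxins TSA1, TSA2 and AHP1 were lower in replicate 2 at an adjusted p under 0.05 (limma, Benjamini-Hochberg over all genes). CTA1, both thioredoxins and both reductases did not pass. Between deletion and wild type the difference farthest from 0 was that of AHP1.

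**Figure D1:**
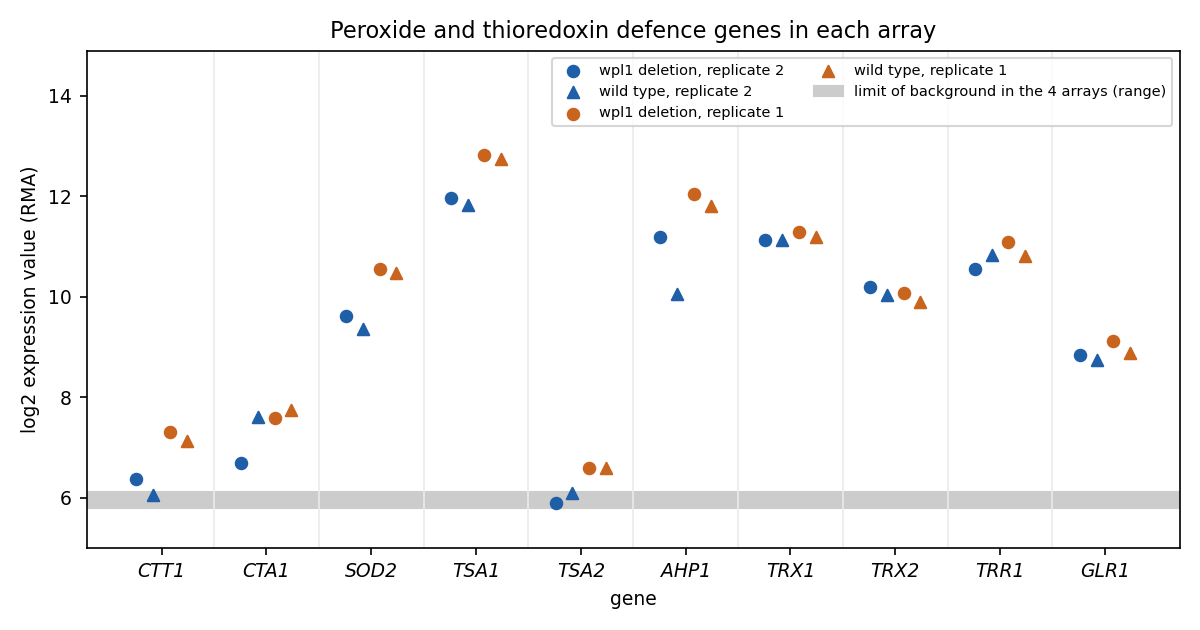
Log2 expression value of each of the 10 genes (vertical axis) in the 4 arrays, with wpl1 deletion as circles, wild type as triangles, replicate 2 in blue and replicate 1 in orange. The blue points of CTT1, SOD2, TSA1, TSA2 and AHP1 lie below the orange ones, and those of TRX1, TRX2 and GLR1 lie close to them. The deletion points of TRR1 are 0.53 apart. TSA2 and, in wild type replicate 2, CTT1 reach the grey band of the background limit.

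CTT1 (YGR088W, chromosome VII) encodes the cytosolic catalase T. Its log2 value in replicate 2 was 6.38 in the deletion and 6.06 in wild type, and in replicate 1 it was 7.30 in the deletion and 7.13 in wild type. Both replicate 2 arrays were below both replicate 1 arrays, at 1.99-fold lower (log2 difference -0.99, SE 0.16, limma adjusted p = 0.0127). The wild type replicate 2 value was barely above the background limit of its array, at 5.99. By genotype the values overlapped, at 6.84 ± 0.65 in the deletion and 6.59 ± 0.75 in wild type (SD, n = 2 each). That SD includes the shift between replicate numbers. Within a replicate number the deletion exceeded wild type, by 0.32 in replicate 2 and by 0.18 in replicate 1. The SE of the genotype difference was 0.48, or 0.14 with the replicate number as a block, and it passed in neither fit.

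CTA1 (YDR256C, chromosome IV) encodes catalase A, which works in peroxisomes. In replicate 2 its log2 value was 6.70 in the deletion and 7.61 in wild type, and in replicate 1 it was 7.58 in the deletion and 7.74 in wild type. The deletion replicate 2 array alone was low, the other 3 values lying within 0.16 of each other. CTA1 was the one defence gene with both deletion arrays below both wild type arrays, an order shared by 8.61% of all genes, and its log2 difference was -0.54 (SE 0.35). That difference was -0.91 within replicate 2 and -0.16 within replicate 1, and it did not pass (limma adjusted p = 1). By replicate number it did not pass either (-0.50, SE 0.29, limma adjusted p = 0.24), and the difference was -0.88 in the deletion and -0.12 in wild type.

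SOD2 (YHR008C, chromosome VIII) encodes the manganese superoxide dismutase of mitochondria. Its log2 values in replicate 2 were 9.62 in the deletion and 9.36 in wild type, against 10.5 in both genotypes in replicate 1. It was 2.03-fold lower in replicate 2 (log2 difference -1.02, SE 0.14, limma adjusted p = 0.0109). The deletion exceeded wild type by 0.26 in replicate 2 and by 0.07 in replicate 1, against an SE of 0.49 in the genotype fit and 0.14 with the replicate number as a block, and it passed in neither fit.

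TSA1 (YML028W, chromosome XIII) encodes the main cytosolic peroxiredoxin, which can also act as a chaperone. Its log2 values were 12.0 in the deletion and 11.8 in wild type in replicate 2, against 12.8 in both genotypes in replicate 1. The gene was 1.85-fold lower in replicate 2 (log2 difference -0.89, SE 0.13, limma adjusted p = 0.0114). Deletion and wild type differed by 0.14 in replicate 2 and by 0.07 in replicate 1.

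TSA2 (YDR453C, chromosome IV), the paralog of TSA1, was the one defence gene not above background in every array. Its log2 value in replicate 2 was 5.90 in the deletion, below that array's limit of 6.10, and 6.09 in wild type. Replicate 1 gave 6.59 in the deletion and 6.60 in wild type. TSA2 was 1.52-fold lower in replicate 2 (log2 difference -0.60, SE 0.13, limma adjusted p = 0.0242), with 1 of the 2 replicate 2 arrays above background. The call ended when all probe sets of the array entered the fit (adjusted p = 0.0697 in limma).

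AHP1 (YLR109W, chromosome XII) encodes a peroxiredoxin that prefers alkyl hydroperoxides. It had the widest range of the 10, 1.99 on the log2 scale. Its log2 values were 11.2 in the deletion and 10.0 in wild type in replicate 2, against 12.0 in the deletion and 11.8 in wild type in replicate 1. Wild type replicate 2 was the low array. AHP1 was 2.47-fold lower in replicate 2 (log2 difference -1.30, SE 0.36, limma adjusted p = 0.0421), with a difference of -0.84 in the deletion and -1.76 in wild type. The difference no longer passed once every probe set of the array was fitted (adjusted p = 0.0912 in limma), nor with quantile normalization over the S. cerevisiae genes (adjusted p = 0.0523 in limma).

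By genotype AHP1 averaged 11.6 ± 0.60 in the deletion and 10.9 ± 1.25 in wild type (SD, n = 2 each), and the groups overlapped. The log2 difference of 0.69 had an SE of 0.62, or 0.25 with the replicate number as a block, and missed the threshold in both fits (limma adjusted p = 1, and 0.996 with the block). It was 1.15 in replicate 2 and 0.23 in replicate 1. Of the 5449 genes, 11 had a difference at least as high as that of AHP1 in replicate 2, AHP1 itself included. Genes of chromosome IX were among them, such as HYR1 at 1.36 and GTT1 at 1.35. Without wild type replicate 2 the genotype difference of AHP1 was -0.19.

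TRX1 (YLR043C, chromosome XII) and TRX2 (YGR209C, chromosome VII) encode the cytosolic thioredoxins, small proteins that reduce peroxiredoxins, ribonucleotide reductase and the sulfate assimilation enzyme Met16. TRX1 was at 11.1 in both genotypes in replicate 2, against 11.3 in the deletion and 11.2 in wild type in replicate 1. TRX2 was at 10.2 in the deletion and 10.0 in wild type in replicate 2, against 10.1 in the deletion and 9.90 in wild type in replicate 1. TRX1 thus stayed within 0.17 over the 4 arrays and TRX2 within 0.30. By replicate number TRX1 was at -0.12 (SE 0.12) and TRX2 at 0.13 (SE 0.14), and neither passed. TRX1 turned to 0.03 with quantile normalization over the S. cerevisiae genes.

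The deletion exceeded wild type for TRX2 by 0.17 in each replicate, the closest match between replicates among the 10 genes. Both deletion arrays of TRX2 were above both wild type arrays, and it was the only one of the 10 with that order, which 5.32% of all genes had. The difference did not pass (SE 0.23, or 0.14 with the block, limma adjusted p = 1, and 0.996 with the block). For TRX1 the deletion exceeded wild type by 0.003 in replicate 2 and by 0.11 in replicate 1.

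TRR1 (YDR353W, chromosome IV) encodes the cytosolic thioredoxin reductase. It was at 10.6 in the deletion and 10.8 in wild type in replicate 2, against 11.1 in the deletion and 10.8 in wild type in replicate 1. The wild type arrays lay within 0.02 of each other and the deletion arrays on either side of them. Its genotype difference was therefore -0.27 in replicate 2 and 0.29 in replicate 1, with a mean of 0.01 (SE 0.28).

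GLR1 (YPL091W, chromosome XVI) encodes glutathione reductase, which keeps the tripeptide glutathione reduced. It was at 8.84 in the deletion and 8.74 in wild type in replicate 2, against 9.12 in the deletion and 8.88 in wild type in replicate 1. The deletion exceeded wild type by 0.10 in replicate 2 and 0.24 in replicate 1, for a mean of 0.17 (SE 0.25). By replicate number GLR1 was at -0.21 (SE 0.14, limma adjusted p = 0.292) and TRR1 at -0.25 (SE 0.16, limma adjusted p = 0.283), and neither passed.

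The comparison of deletion with wild type asks how transcript levels differ in cells without Wpl1. At an adjusted p under 0.05 in limma, 0 of the 10 defence genes passed, where 0% of all 5449 genes did. Before adjustment limma gave 0 of the 10 below 0.05, against 0.184% of all genes. With the replicate block it gave 1 of the 10 below 0.05 before adjustment, AHP1, against 2.86% of all genes. The genotype difference was above 0 in both replicates for 7 of the 10 genes (CTT1, SOD2, TSA1, AHP1, TRX1, TRX2 and GLR1), against 21.3% of all genes. It was above the median of all genes in both replicates for 7 as well, against 25.2% of all genes. It was below 0 in both for CTA1 and TSA2, against 26.9% of all genes. For TSA2 it was -0.19 in replicate 2, where the deletion array was below background, and only -0.00085 in replicate 1. The median log2 difference of the 10 was 0.14, and that of all genes -0.03. These counts describe 10 genes on 4 arrays and carry no test. Apart from AHP1 and CTA1, no mean genotype difference among them exceeded 0.25 in size. Exact permutation of 2 arrays against 2 cannot give a two-sided p below 0.333.

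**Figure D2:**
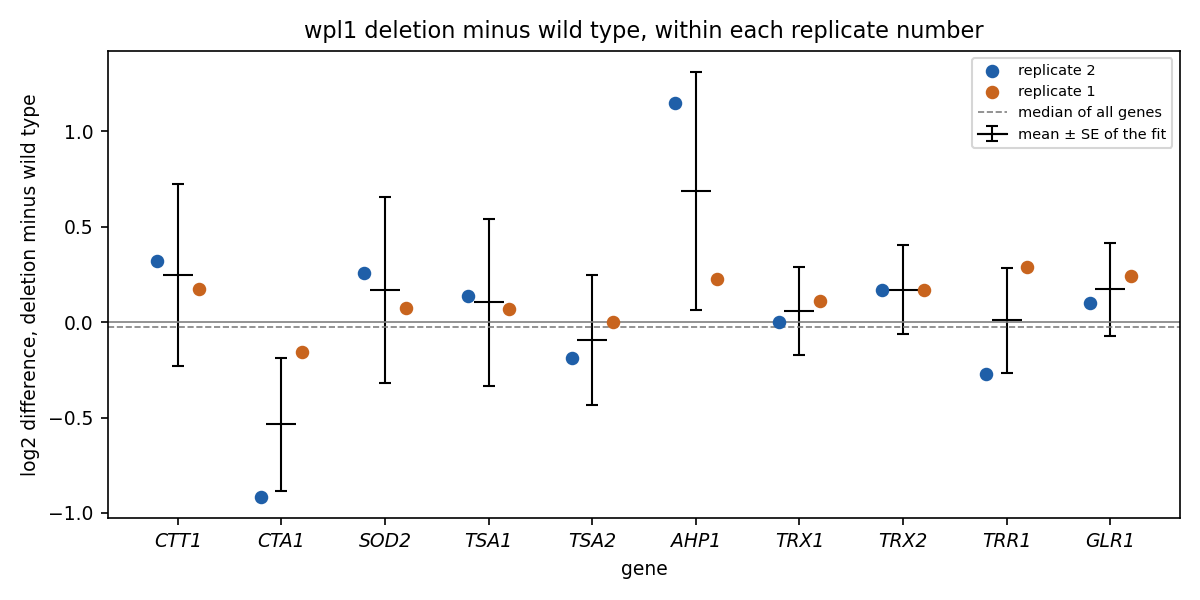
Log2 difference, wpl1 deletion minus wild type, of each gene in replicate 2 (blue) and replicate 1 (orange), with the mean and SE of the limma fit in black and the median of all genes dashed. AHP1 in replicate 2, at 1.15, and CTA1 in replicate 2, at -0.91, lie apart, while the points of TRX2 are level at 0.17.

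By replicate number, 28.4% of all genes passed in one direction or the other (limma adjusted p under 0.05). Of the 10 defence genes 5 were lower in replicate 2, where 19.7% of all genes were, and 0 were higher, where 8.75% of all genes were. With the genotype as a factor in the fit the same 5 genes were lower, against 13.2% of all genes, and 0 higher, against 6.15%. Both replicate 2 arrays were below both replicate 1 arrays for 7 of the 10 genes, against 46.0% of all genes, and above them for 0 of the 10, against 23.4%. The median log2 difference was -0.55 for the 10 genes and -0.13 for all genes. Relative to the median of all genes, AHP1 was at -1.17, SOD2 at -0.89, CTT1 at -0.86, TSA1 at -0.76 and TSA2 at -0.47. TRX1, TRX2, TRR1 and GLR1 were at 0.01, 0.26, -0.12 and -0.08 on that scale. The 5 genes that passed encode enzymes that act on superoxide or peroxide directly, as does CTA1, which did not pass. The thioredoxins and the reductases, which recharge peroxiredoxins and glutathione, did not pass. Whether the 2 groups of genes differ from each other was not tested.

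The count depended on single arrays, as did that over all genes. A fit without 1 array leaves 1 array of a replicate number, so only the differences are given here. They ran from -1.15 to -0.89 for SOD2, -1.15 to -0.83 for CTT1 and -0.96 to -0.82 for TSA1. For TSA2 they ran from -0.69 to -0.51 and for AHP1 from -1.88 to -0.73. Those of CTA1, which did not pass with all 4 arrays, ran from -0.96 to -0.04. The direction of the 5 genes could not turn in these fits, since each had both replicate 2 arrays below both replicate 1 arrays.

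**Figure D3:**
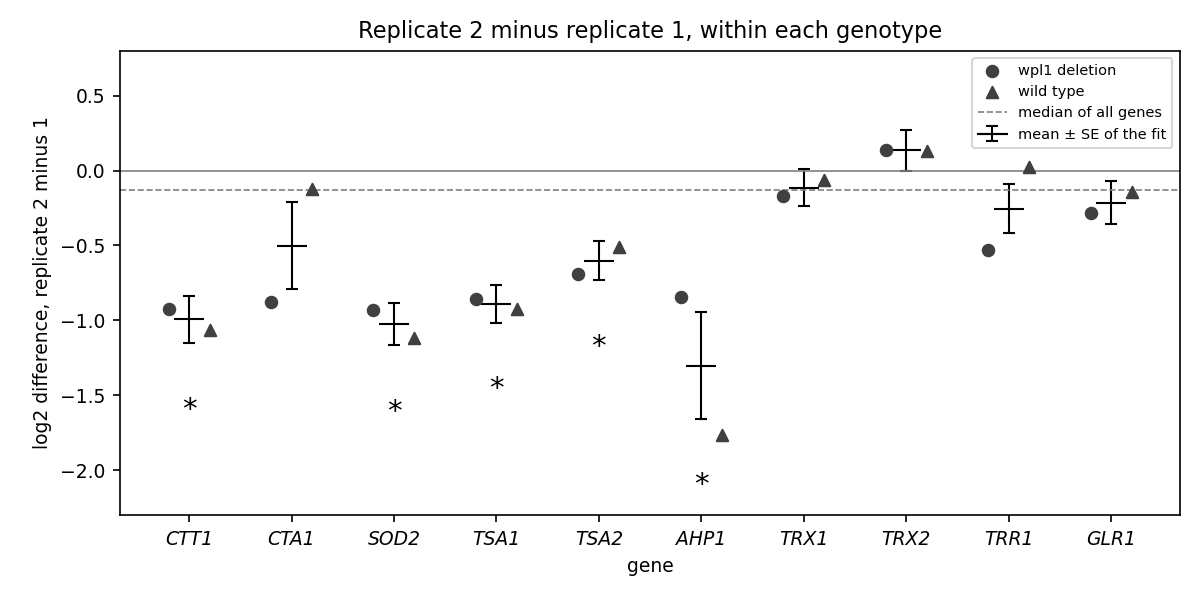
Log2 difference, replicate 2 minus replicate 1, of each gene in wpl1 deletion (circles) and wild type (triangles), with the mean and SE of the limma fit in black, the median of all genes dashed and an asterisk where the adjusted p was under 0.05. CTT1, SOD2, TSA1 and TSA2 have similar differences in both genotypes, and AHP1 has -0.84 in the deletion and -1.76 in wild type. TRX1 and GLR1 lie near the dashed line, and TRX2 lies above it, at 0.13 in both genotypes. TRR1 lies near the line in wild type but not in the deletion, at -0.53.

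Related genes were read from lists of the same pathways. Their counts are to be read against the 19.7% of all genes that were lower and the 8.75% that were higher in replicate 2, or 13.2% and 6.15% with the genotype as a factor. Among the partners of the dismutases and of cytochrome c peroxidase, 3 of 5 genes were lower in replicate 2. SOD1, the copper-zinc dismutase of the cytosol, had a log2 difference of -1.14 (SE 0.12), CCS1, its copper chaperone, -1.09 (SE 0.12) and MTM1, a mitochondrial carrier needed for Sod2 activity, -0.61 (SE 0.16). Their adjusted p in limma was 0.0102, 0.0103 and 0.0367, and MTM1 did not pass with the genotype as a factor (adjusted p = 0.0525), which left 2 of 5. Cytochrome c peroxidase (CCP1, -0.35) and cytochrome c (CYC1, 0.15) did not pass. Of the other peroxiredoxins and repair enzymes, 2 of 5 were lower. MXR2, a mitochondrial methionine sulfoxide reductase, had -0.85 (SE 0.16), and SRX1, the sulfiredoxin that repairs overoxidised peroxiredoxin, was not above background in replicate 2 and was at least 1.29-fold lower there. With the genotype as a factor SRX1 did not pass (limma adjusted p = 0.0762). The mitochondrial peroxiredoxin PRX1 had -0.49 and did not pass. The mitochondrial thioredoxin system did not pass, with TRX3 at -0.39 (SE 0.17) and TRR2 at -0.30 (SE 0.17).

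Of 12 measured genes of glutathione synthesis, peroxidases and transferases, 1 was lower in replicate 2 and 0 higher, with a median log2 difference of -0.20, where 19.7% of all genes were lower. The one was GPX1, a glutathione peroxidase, which was not above background in replicate 2 and was at least 1.41-fold lower there. The transferase GTT2 had -0.45 and did not pass, and GTO3 was above background in 1 array. Among the 8 glutaredoxins, 2 were lower, GRX2 (-0.73, SE 0.17) and GRX6 of the secretory pathway (-0.52, SE 0.14), and 0 higher, a share near that of all genes. GRX6 did not pass with the genotype as a factor (limma adjusted p = 0.0695). GRX7 had 0.33 and did not pass in either fit, and the median of the 8 was -0.15.

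Of 14 genes for the supply of NADPH, on which both reductases depend, 6 had lower transcript levels in replicate 2 and 0 higher, with a median log2 difference of -0.38, where 19.7% of all genes were lower. A genotype factor left 4 of the 14 lower. ZWF1, glucose-6-phosphate dehydrogenase, had -0.83 (SE 0.15), the phosphogluconolactonase SOL3 had -0.73 (SE 0.13) and GND1, 6-phosphogluconate dehydrogenase, had -0.98 (SE 0.12). SOL4, a second phosphogluconolactonase, was not above background in replicate 2 and was at least 3.02-fold lower there. SOL4 also belongs to the general stress list below, so both lists count it as lower.

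Of 15 regulators 4 were lower and 2 higher in replicate 2, shares near the 19.7% and 8.75% of all genes. Among the lower ones were the kinase genes YAK1 (-1.02, SE 0.14) and HOG1 (-0.90, SE 0.12). YBP1, the gene of a Yap1-binding protein, was also lower (-0.56, SE 0.12). CAD1 was lower too (-0.61, SE 0.17), and passed with the genotype as a factor as well (limma adjusted p = 0.0452). The 2 higher ones were MSN4 (0.53, SE 0.13) and YAP1, the gene of Yap1 itself. With the genotype as a factor 3 were lower and 0 higher. YBP1 (limma adjusted p = 0.0503), MSN4 (limma adjusted p = 0.065) and YAP1 then no longer passed. Among 12 genes listed for Yap1, 4 were lower and 0 higher, against 19.7% and 8.75% of all genes. They were the old yellow enzyme OYE3, not above background in replicate 2 and at least 1.58-fold lower there, the quinone reductase ZTA1 (-0.73), the homocitrate synthase LYS20 (-0.88) and the Hsp40 chaperone YDJ1 (-0.49), which did not pass with the genotype as a factor (limma adjusted p = 0.0776).

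The general stress list under Msn2 and Msn4, to which CTT1 belongs by its regulation, had the lowest median of the 11 lists, -1.01 on the log2 scale. In it 18 of 26 genes were lower in replicate 2 and 0 higher, where 19.7% of all genes were lower and 8.75% higher. A fit with the genotype as a factor left 17 lower, against 13.2% of all genes. HSP42, a small heat shock protein, had -2.92 (SE 0.21), the glucokinase GLK1 -2.06 (SE 0.14) and TPS2, of trehalose synthesis, -1.72 (SE 0.14). HSP12 of the same list had 0.45 (SE 0.38) and did not pass.

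Peroxisomal fatty acid oxidation is a pathway that produces peroxide, which CTA1 removes. Its list had 5 of 14 genes lower and 1 higher, with a median of -0.33, where 19.7% of all genes were lower and 8.75% higher. SPS19 had -0.59 (SE 0.12), the thiolase POT1 -0.58 (SE 0.14) and the transporter gene PXA1 0.46 (SE 0.13). The acyl-CoA oxidase POX1 was not above background in replicate 2 and was at least 1.33-fold lower there. With the genotype as a factor 2 of the 14 were lower and 0 higher, and POT1 (limma adjusted p = 0.0589) and PXA1 (limma adjusted p = 0.0766) did not pass. The list for other thioredoxin substrates holds MET16 and the genes of the large and small subunits of ribonucleotide reductase. The small subunit genes RNR2 (-0.72, SE 0.12) and RNR4 (-0.53, SE 0.13) were lower, and the large subunit gene RNR1 was higher (0.50, SE 0.14). With the genotype as a factor RNR2 alone of the 5 passed, with limma adjusted p = 0.0598 for RNR4 and 0.0784 for RNR1.

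**Figure D4:**
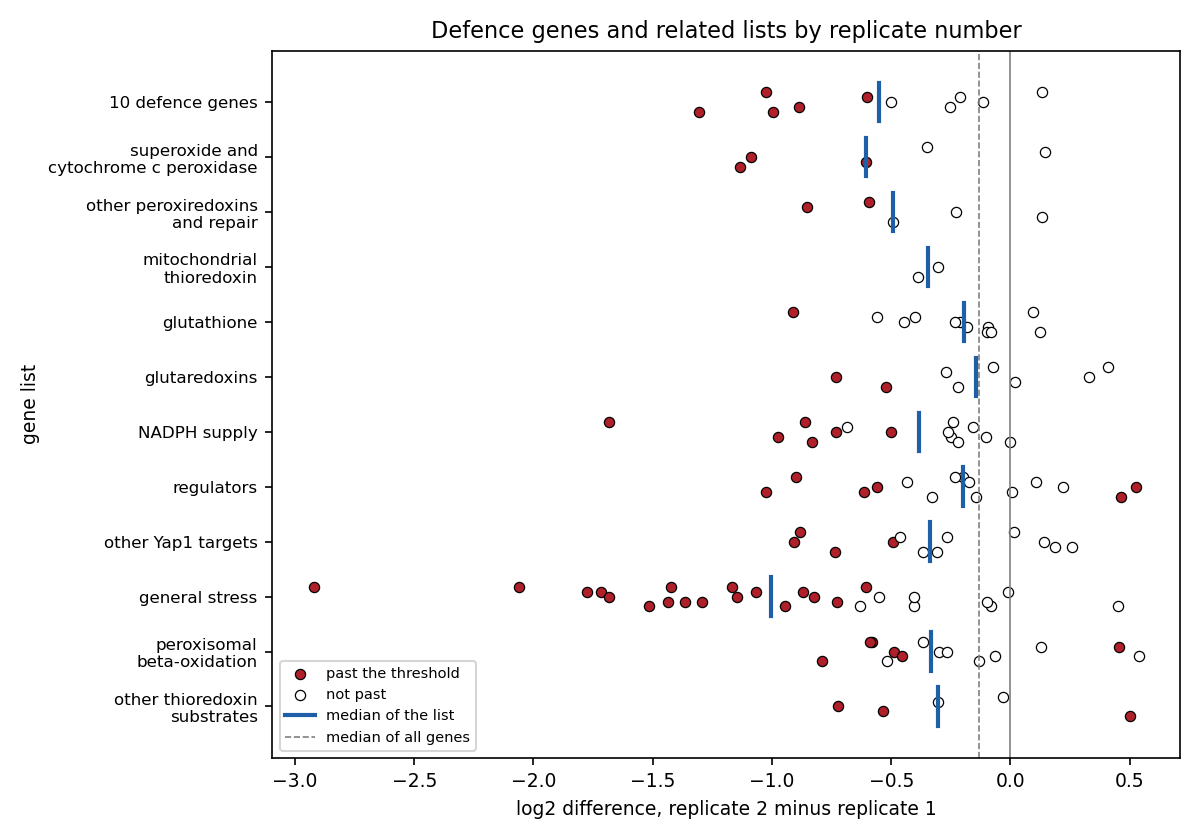
Log2 difference, replicate 2 minus replicate 1, of the 10 defence genes and of the genes of 11 related lists (1 row per list), with filled points where the limma adjusted p was under 0.05, a blue bar at the median of each list and a dashed line at the median of all genes, -0.13. The general stress list has its bar farthest to the left, at -1.01, and the glutaredoxins lie around the dashed line, with a median of -0.15.

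Between deletion and wild type, 0 genes of any of the 11 lists passed. The values of smallest p in the glutathione list were those of HYR1, a peroxidase that senses peroxide for Yap1 (log2 difference 0.86, SE 0.35), and the transferases GTT1 (0.75, SE 0.34) and ECM4 (0.36, SE 0.27). With the block the SE was 0.26 for HYR1, 0.30 for GTT1 and 0.19 for ECM4. The difference was 1.36 in replicate 2 and 0.35 in replicate 1 for HYR1. For GTT1 it was 1.35 in replicate 2 and 0.15 in replicate 1. Both lie on chromosome IX, as does DOT5, a nuclear peroxiredoxin at 0.94 in replicate 2 and 0.02 in replicate 1. The median of the 191 genes of that chromosome was 0.66 in replicate 2, and its part in these values was not tested. ECM4 lies on chromosome XI.

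Of the genes close to the dismutases, CYC1 had a genotype difference of 0.40 (SE 0.24), CCP1 -0.23 (SE 0.27) and MTM1 0.20 (SE 0.35). With the block the SE was 0.14 for CYC1, 0.14 for CCP1 and 0.15 for MTM1. MXR2 had 0.25 and PRX1 0.20, while TRX3 had 0.28 and TRR2 0.23. GRX5, a mitochondrial glutaredoxin of iron-sulfur assembly, had 0.35 (SE 0.25, or 0.14 with the block). It was at 0.33 in replicate 2 and 0.37 in replicate 1. GRX2 had 0.26 and GRX4 -0.18. NADPH genes had a median of 0.08, with TKL2 at -0.28, TKL1 at 0.22 and IDP1 at -0.22. None of these passed.

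Regulators had a median genotype difference of -0.08, with ADR1 at 0.29, CAD1 at -0.28 and SKN7 at -0.17. For the Yap1 list it was 0.02, with GRE2 at 0.36, ALT1 at 0.22 and OYE2 at 0.11. In the stress list 22 of 26 genes were above 0, where 43.6% of all genes were, and its median was 0.17. HSP12 had 0.84 (SE 0.32, or 0.20 with the block) and TSL1 0.44 (SE 0.46, or 0.16 with the block). HSP26, at background in both wild type arrays, had a bound of at least 1.28-fold higher in deletion cells and did not pass. In the peroxisomal list ECI1 had -0.29 and FAA2 -0.23, and POX1 was above background only in the replicate 1 arrays, where deletion minus wild type was -0.24. The median of the list was -0.03, against -0.03 for all genes. The list for thioredoxin substrates had a median of 0.04, with RNR3, on chromosome IX, at 0.12, RNR1 at 0.09 and MET16 at 0.04.

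The patterns over the 4 arrays were matched across all genes by the Euclidean distance between gene-centred log2 values, for the 3 defence genes of widest range. Nearest to AHP1 were ACO1, the mitochondrial aconitase (distance 0.29), CTR1, a copper transporter (0.31), and HSP104, a disaggregase (0.33). ACO1 was at 10.8 in the deletion and 9.65 in wild type in replicate 2, against 11.3 in the deletion and 11.2 in wild type in replicate 1, so it too was lowest in wild type replicate 2. Nearest to CTT1 were LSB3 (0.04), the proteasome subunit RPT5 (0.05) and MSK1, the mitochondrial lysyl-tRNA synthetase (0.08). Nearest to SOD2 were the mitochondrial ribosomal protein RSM7 (0.02), MSK1 (0.02) and the proteasome subunit RPN10 (0.05). With 4 arrays such distances describe these profiles and carry no test.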

How the data were processed

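Total RNA of 4 yeast samples was made into double-stranded cDNA, fragmented, biotin-labelled and hybridised, per the labels' protocols. Such labelling does not keep the strand, so sense and antisense transcripts cannot be told apart. The deposited log2 values per probe set were made by the authors with RMA (affy), per the submitters' processing notes, with no versions given in the sources used here. RMA equalises array distributions, so differences are relative to other transcripts.

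Of 10928 probe sets, 7244 had 1 gene symbol, 1 several and 3683 none. Gene IDs matched 5498 to S. cerevisiae genes (NCBI table, assembly R64). Probe sets of 1 gene were averaged (47 genes), giving 5449 genes. Fission yeast accounts for the 1746 further named probe sets. Chromosomes were read from systematic names, and no coordinates are given because the files name no build.

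Groups and replicate numbers came from titles. Genotype and replicate number were each fitted with limma 3.58.1 in R 4.3.3 (lmFit, eBayes, two-sided, no covariate, 2 residual degrees of freedom), with Benjamini-Hochberg adjustment over all genes. The shared date tag pairs the arrays, and deviations of same-numbered arrays from their group means correlated with r = 0.747 across genes. No 2 arrays of a group were identical. The fit by replicate number was run on simulated arrays with known changed genes and independent noise. That simulation covered neither the genotype fit nor the correlation between same-numbered arrays. Genes not above background in either array of a group got a bound, each dim array counting at its limit or at the measured value, whichever was higher. From each list, genes past the threshold (up to 4, by smallest p) were named, filled to 3 by smallest p. The number of arrays limits the precision. Alternatives were the replicate block or genotype factor, a dim filter, all probe sets, the brightest probe set, centring, quantile normalization, a trended robust prior, and leaving out each array. A fit without chromosome IX genes was chosen after seeing the data. The 10 genes and the lists were chosen with earlier results of these data known.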

Additional observations from a re-analysis of the deposited data

Results flagged for a closer look

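The thioredoxin reductase gene TRR1 was the one defence gene whose arrays moved in opposite directions. Its genotype difference, deletion minus wild type, was -0.27 on the log2 scale in replicate 2 and 0.29 in replicate 1. By replicate number, replicate 2 minus replicate 1, it was at -0.53 in the deletion and 0.02 in wild type. With 1 array for each genotype and replicate number the difference between these values was not tested.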

How the results depend on the processing

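For genotype, 0 of the 10 defence genes passed under every alternative run. Across all genes 0 passed as well, also with the replicate block (smallest adjusted p 0.141 in limma, unadjusted p under 0.05 for 156 genes, against 10 without the block), and with 1 array left out the count ran from 0 to 3. The block changed no call. Leaving out an array mixes genotype with the date tag. The genotype difference then ran from -0.19 to 1.57 for AHP1, -0.29 to 0.78 for CTT1, -0.39 to 0.72 for SOD2, -0.36 to 0.56 for TSA1, -0.44 to 0.25 for TSA2, -0.26 to 0.28 for TRR1 and -0.027 to 0.14 for TRX1, with a turn of sign in each. CTA1 (-0.98 to -0.096), GLR1 (0.029 to 0.31) and TRX2 (0.10 to 0.24) kept their sign. For CTA1 and TRX2 a turn was not possible, as their deletion and wild type arrays did not overlap. By replicate number, 1550 genes passed, 1056 with the genotype as a factor, which also ended calls in the related lists, as given there, and 596 with all 10928 probe sets in the fit, where 3 of the 10 defence genes passed, without AHP1 and TSA2. With 1 array left out the counts ran from 290 to 1729 genes and from 1 to 6 defence genes. Quantile normalization over the S. cerevisiae genes left 4 of the 10 and turned TRX1 to 0.033. The cause was not tested. The dim filter, the brightest probe set, centring, the trended robust prior and the fit without chromosome IX genes kept the 5 calls. TSA2 and, in wild type replicate 2, CTT1 lie near background, which limits their differences.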
